A study of Mus musculus with 16 samples.

Results

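The 8 genes described here encode ion channel subunits that set the electrical behaviour of the muscle fibre membrane, the sarcolemma: *Clcn1*, *Scn4a*, *Kcnj2*, *Kcnj11*, *Kcnab1*, *Kcnn3*, *Kcnc4* and *Kcnc1*. They were chosen by name, with earlier results of these data known. All 8 were found by Entrez identifier among the 24454 genes of the counts table. RNA-seq of the *gastrocnemius* gave 16 libraries, each from 1 mouse aged 3 months. HSALR mice carry an HSA transgene, the gene of human skeletal actin with an expanded CTG repeat, on the FVB/N background. The transgene is expressed in skeletal muscle only, the mice were homozygous and of the LR20b line, and non-transgenic FVB/N mice were the controls. Mice of both genotypes had received vehicle, labelled CTRL, or AICAR, an activator of AMP-activated protein kinase, at 500 mg/kg for 7 days. There were 3 control and 5 HSALR mice after vehicle, and 3 control and 5 HSALR mice after AICAR.

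An action potential in a muscle fibre begins with sodium entry and ends with potassium leaving the cell. A large resting chloride conductance then holds the membrane near its resting potential and keeps potassium that gathers in the transverse tubules from setting off further action potentials. When this chloride conductance is too small, or when sodium channels fail to close, fibres fire repetitively after a contraction and relax slowly, which is called myotonia. Myotonia is a defining sign of myotonic dystrophy, where toxic repeat RNA disturbs splicing in muscle, the splicing of the chloride channel transcript included. Counts per gene, as used here, add up all transcripts of a gene and do not measure splicing.

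The reads counted on genes numbered 64890014 to 81987726 a mouse, with a median of 73021286. Levels are given as normalized CPM, the CPM that edgeR gives after TMM scaling, which are the reads of a gene as a share of all reads of the library. Of all genes, 15487 passed the filter on low counts, all 8 channel genes among them, and these were compared by the quasi-likelihood test of edgeR in a model with 1 mean for each of the 4 groups. An adjusted p is the p of this test after Benjamini-Hochberg adjustment over the 15487 genes, and a gene was called where it was under 0.05. The summed level of 9 muscle fibre markers was between 136070 and 194516 normalized CPM in all libraries, but some of them moved with genotype. *Myh1*, the myosin of fast IIx fibres, was higher in HSALR muscle under both treatments (3513 to 5408 normalized CPM in vehicle-treated controls, 9473 to 17612 in vehicle-treated HSALR mice). *Acta1* was also higher under both, and *Myh4*, the myosin of IIb fibres, was lower after AICAR. With AICAR *Pvalb*, the calcium buffer parvalbumin of fast fibres, fell in HSALR muscle (medians 6988 and 4034), and no other fibre marker was called there. The part of fibre type in the channel results was not tested. Libraries differed in RNA of the epidermis: the summed level of 8 epidermal markers was between 18.6 and 187 normalized CPM in 6 libraries and at most 1.21 in the others. These 6 were 4 of the 5 vehicle-treated HSALR mice, 1 of the 3 vehicle-treated controls and 1 of the 3 AICAR-treated controls. The main calls of the 8 genes, their ratios and results for other channel genes are therefore also given without these 6 libraries. There, mouse S451 alone stands for the vehicle-treated HSALR mice and is assumed to vary like the mice of the other groups.

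After vehicle, 6 of the 8 genes differed between HSALR and control muscle. *Kcnn3*, *Kcnc4* and *Kcnj11* were higher and *Kcnab1*, *Clcn1* and *Scn4a* were lower. Of all tested genes, 26.9% were called in this comparison, 15.4% higher and 11.5% lower. After AICAR, 5 of the 8 genes differed between the genotypes, 2 higher and 3 lower, where 21.8% of all tested genes were called, 12.2% higher and 9.64% lower. AICAR changed 3 of the 8 genes in HSALR muscle, with *Clcn1* and *Kcnc1* higher and *Kcnc4* lower, and 26.6% of all tested genes were called there, 13.7% higher and 13% lower. In control muscle AICAR changed 1 of the 8 genes, *Kcnc1*, which was higher, where 13.2% of all tested genes were called, 8.4% higher and 4.77% lower. The median log2 fold change of the 8 genes was 0.15 between the genotypes after vehicle, against 0.01 over all tested genes, since the genes moved in both directions. Comparisons that share a group of mice are not independent of each other.

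**Figure D1:**
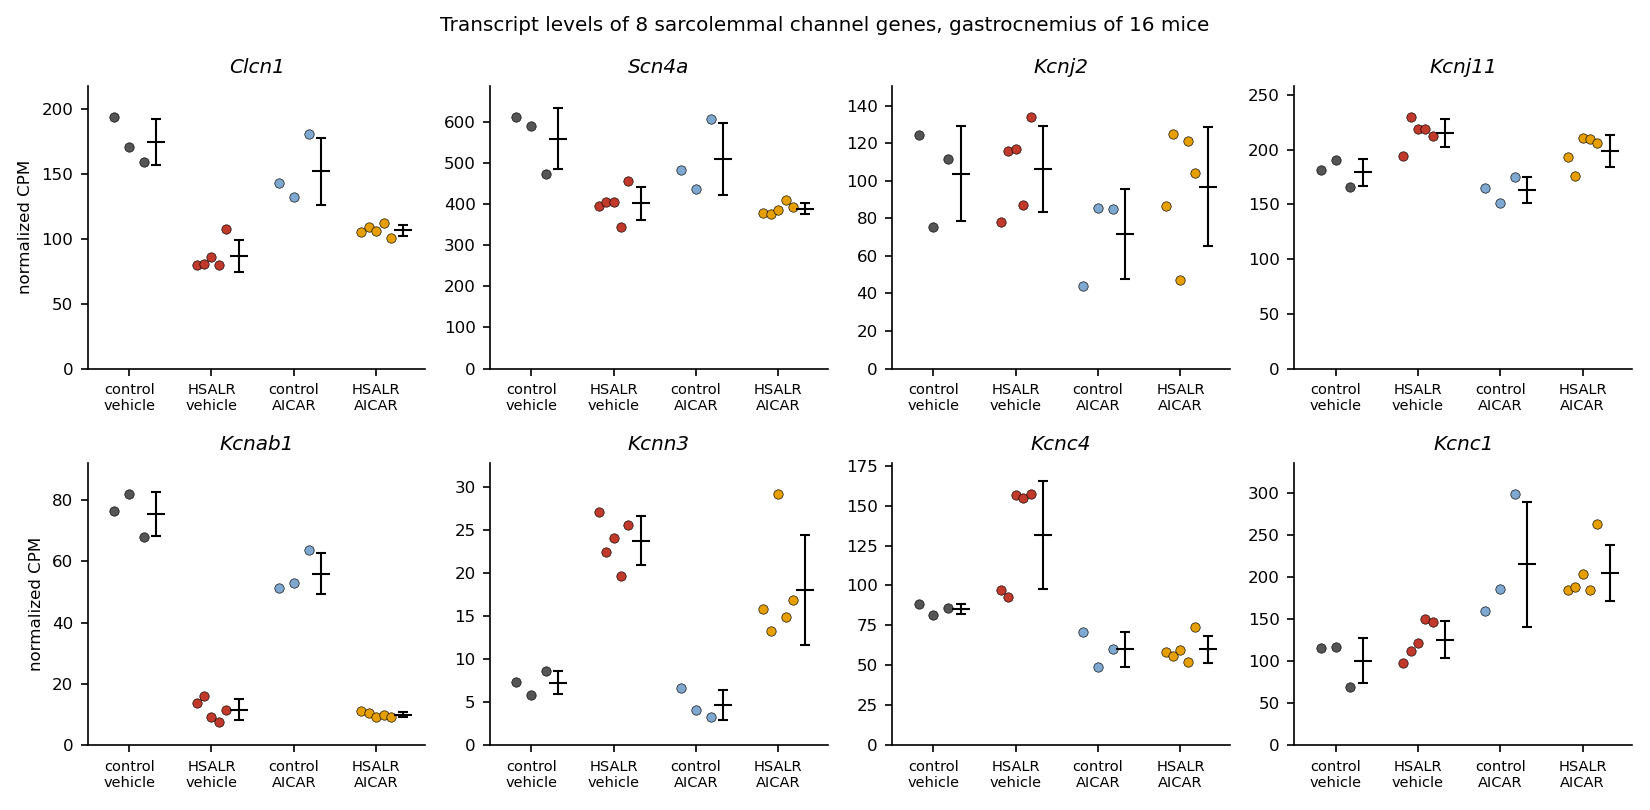
Normalized CPM (y axes, from 0) of the 8 genes in each mouse, by genotype and treatment (3, 5, 3 and 5 mice); points are mice, and the horizontal mark with its bar is the mean ± SD. The HSALR mice lie apart from the controls of the same treatment in *Clcn1*, *Scn4a*, *Kcnab1*, *Kcnn3* and, narrowly, *Kcnj11*. *Kcnc4* divides the vehicle-treated HSALR mice into 2 mice at 92.6 and 97.2 and 3 mice between 155 and 157.

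The chloride channel gene *Clcn1* encodes ClC-1, which carries most of the resting chloride conductance of muscle, and loss of its function causes myotonia congenita. It lies on the forward strand of chromosome 6 (GRCm38, chr6:42284851-42315764) and overlaps 2 other annotated genes, the long non-coding *Gm38797* and the protein-coding *Fam131b*. In vehicle-treated controls it was at 193, 171 and 159 normalized CPM (mice S445, S446 and S450). In vehicle-treated HSALR mice it was at 79.7, 80.4, 85.8, 79.6 and 108 (S451, S452, S453, S458 and S459). Each HSALR mouse was below each control, and S459 stood above the other 4. The level was 2.01-fold lower in HSALR muscle (log2 fold change -1.01, SE 0.11, adjusted p = 9.39e-06), and the mean was 49.7% of the control mean. With the 6 libraries with epidermal RNA left out, the log2 fold change was -1.20 (adjusted p = 0.00167).

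After AICAR, *Clcn1* was at 143, 132 and 181 normalized CPM in control mice (S447, S448 and S449). In HSALR mice it was at 105, 109, 106, 112 and 101 (S454, S455, S460, S462 and S463). The genotypes again did not overlap, and the HSALR mice lay within a narrow range. The level was 1.43-fold lower in HSALR muscle (log2 fold change -0.51, SE 0.11, adjusted p = 0.00396), and the log2 fold change was -0.60 without the 6 libraries with epidermal RNA (adjusted p = 0.00305). AICAR raised *Clcn1* 1.23-fold in HSALR muscle (log2 fold change 0.30, SE 0.10, adjusted p = 0.0315), and of the vehicle-treated mice S459 alone reached the range of the treated ones. This call was lost with the epidermal score as a covariate (log2 fold change 0.25), on scaling to *Tbp* (0.18) and on leaving out any of 7 single mice (0.27 to 0.30). In the 10 libraries left without those that hold epidermal RNA, the log2 fold change was 0.41 (adjusted p = 0.0846). In control muscle the log2 fold change with AICAR was -0.20 (SE 0.12, adjusted p = 0.312). The AICAR effects of the genotypes differed by 0.50 (95% interval 0.16 to 0.83), with an adjusted p of 0.152. AICAR-treated HSALR muscle remained 1.64-fold below vehicle-treated control muscle (log2 fold change -0.71, SE 0.11, adjusted p = 0.000155), and 37.2% of all tested genes were called in that comparison, 20.8% higher and 16.4% lower.

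The sodium channel gene *Scn4a* encodes Nav1.4, the pore that carries the upstroke of the muscle action potential, and its gain-of-function mutations cause paramyotonia and other myotonias. It lies on the reverse strand (chr11:106317545-106365559). In vehicle-treated controls it was at 610.2, 590.4 and 474 normalized CPM, and in vehicle-treated HSALR mice at 395, 406, 405, 345 and 456, each list in the order of mice given for *Clcn1*. The groups did not overlap, with the lowest control close to the highest HSALR mouse. *Scn4a* was 1.39-fold lower in HSALR muscle (log2 fold change -0.48, SE 0.11, adjusted p = 0.00376). After AICAR it was at 483, 437 and 606 in control mice and at 379, 375, 384, 409 and 394 in HSALR mice, without overlap, a 1.31-fold lower level (log2 fold change -0.39, SE 0.11, adjusted p = 0.0166). On scaling to *Tbp* neither passed, with log2 fold changes of -0.20 after vehicle (adjusted p = 0.324) and -0.42 after AICAR (adjusted p = 0.0873). The call after AICAR was also lost without control mouse S449 (-0.24, adjusted p = 0.113). Without the 6 libraries with epidermal RNA, the log2 fold change was -0.61 after vehicle (adjusted p = 0.0267) and -0.49 after AICAR (adjusted p = 0.00595). With AICAR the log2 fold change was -0.05 in HSALR muscle (95% interval -0.25 to 0.15) and -0.13 in control muscle (95% interval -0.39 to 0.12), and neither passed the test.

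*Clcn1* and *Scn4a* moved together from mouse to mouse: in 4 of 4 groups the mouse with the highest *Clcn1* level also had the highest *Scn4a* level (S445, S459, S449 and S462). The promoter windows of these 2 genes and of *Kcnn3*, which moved the other way between the genotypes, are shown for comparison. They are RefSeq-based windows of GRCm38.p6 from 250 bases before to 50 after an annotated start, printed 5′ to 3′ on the strand of the gene, and 7 of the 8 genes had one. For *Clcn1* it is chr6:42286435-42286734 on the forward strand, for *Scn4a* chr11:106349341-106349640 on the reverse strand and for *Kcnn3* chr3:89519914-89520213 on the forward strand. The *Clcn1* and *Scn4a* windows lie inside the annotated gene spans, at internal starts, and the *Kcnn3* window lies at the 5′ end of its span. Capitals mark the E-box letters CANNTG, the motif that MyoD and related muscle factors bind, which read the same on both strands, and the TATA box letters TATAAA, searched on both strands. These motifs were chosen with the values of the genes known.
Clcn1: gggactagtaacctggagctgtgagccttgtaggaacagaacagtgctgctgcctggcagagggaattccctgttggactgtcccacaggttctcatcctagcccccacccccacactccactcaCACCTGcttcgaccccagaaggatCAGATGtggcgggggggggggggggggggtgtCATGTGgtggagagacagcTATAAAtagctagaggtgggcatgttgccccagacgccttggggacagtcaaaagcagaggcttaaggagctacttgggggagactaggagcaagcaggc
Scn4a: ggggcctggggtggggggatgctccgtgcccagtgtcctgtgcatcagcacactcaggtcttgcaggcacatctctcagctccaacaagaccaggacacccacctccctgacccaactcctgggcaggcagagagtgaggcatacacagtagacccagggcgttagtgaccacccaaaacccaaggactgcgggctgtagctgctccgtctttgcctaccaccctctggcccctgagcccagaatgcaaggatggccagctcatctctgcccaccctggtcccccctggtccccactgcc
Kcnn3: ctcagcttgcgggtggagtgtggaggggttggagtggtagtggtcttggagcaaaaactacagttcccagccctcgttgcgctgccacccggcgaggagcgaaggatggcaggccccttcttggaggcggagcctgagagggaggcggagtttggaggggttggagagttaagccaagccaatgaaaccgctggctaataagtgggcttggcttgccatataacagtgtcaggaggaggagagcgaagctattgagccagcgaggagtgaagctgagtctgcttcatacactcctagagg
The *Clcn1* window held 3 E-boxes and a TATAAA that begins at position -50 from the start, and no motif overlapped another. The *Scn4a* and *Kcnn3* windows held neither. Of all 32851 windows of this length, 72.3% held at least 1 E-box, 17.6% at least 3, and 13.6% a TATAAA.

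The ratio of *Clcn1* to *Scn4a* reads within a mouse does not depend on how libraries are scaled, and it is not corrected for gene length. There were 31.7, 28.9 and 33.5 *Clcn1* reads per 100 *Scn4a* reads in vehicle-treated controls. In vehicle-treated HSALR mice there were 20.2, 19.8, 21.2, 23.1 and 23.6. All HSALR mice were thus below all controls. The log2 ratio was -1.67 ± 0.11 in controls (SD, n = 3) and -2.22 ± 0.11 in HSALR mice (SD, n = 5), a difference of -0.54 (p = 0.0179 by a two-sided exact permutation test, where 3 against 5 mice allow no smaller value, and 0.0536 after Benjamini-Hochberg adjustment over 12 tests of ratios).

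After AICAR there were 29.6, 30.2 and 29.8 *Clcn1* reads per 100 *Scn4a* reads in control mice and 27.8, 29.0, 27.6, 27.4 and 25.5 in HSALR mice. The genotypes differed by -0.12 in the log2 ratio (exact permutation test, p = 0.0357, adjusted 0.0857). Each AICAR-treated HSALR mouse had a higher ratio than each vehicle-treated HSALR mouse, without overlap. The difference was 0.35 in the log2 ratio, or 1.28-fold (p = 0.00794 by the exact permutation test, where 5 against 5 mice allow no smaller value, adjusted 0.0536). In control mice it was -0.07 (exact permutation test, p = 0.4), where 3 against 3 mice cannot give a p below 0.10. With the 6 libraries with epidermal RNA left out, the differences in the log2 ratio were -0.59 between the genotypes after vehicle, -0.12 after AICAR and 0.44 with AICAR in HSALR mice. The first and the last rest on S451 alone in the vehicle-treated HSALR group and have no test.

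**Figure D2:**
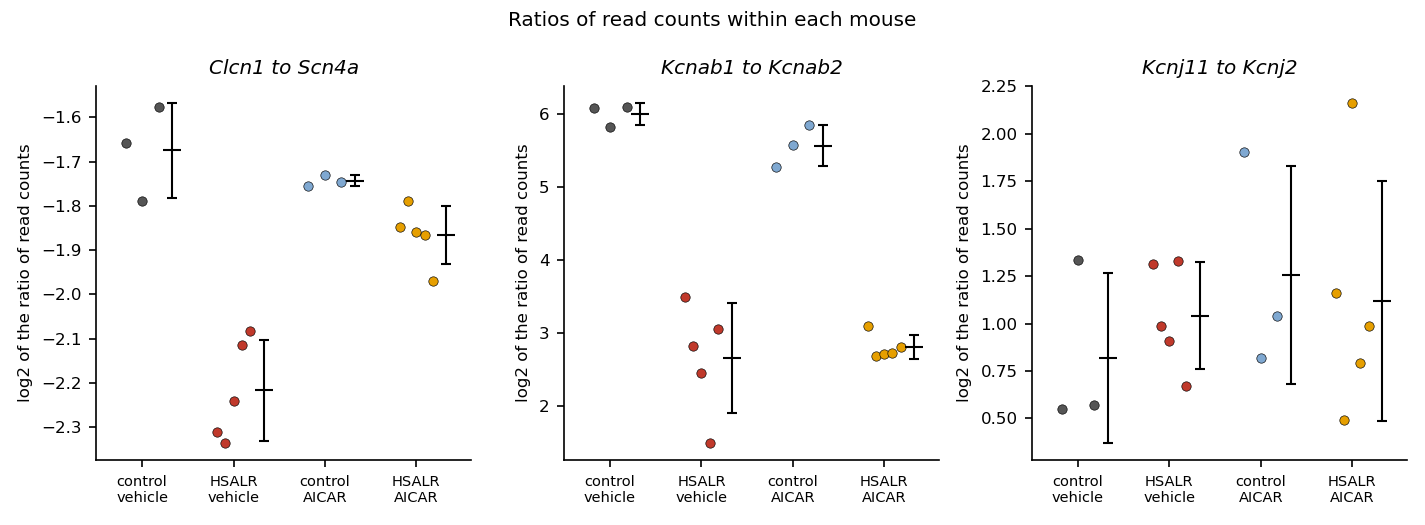
Log2 of the ratio of read counts of 2 genes in each mouse (y axes, which do not start at 0), by genotype and treatment; points are mice and the horizontal mark with its bar is the mean ± SD. The *Clcn1* to *Scn4a* ratio is lowest in the 5 vehicle-treated HSALR mice (mean -2.22), and the *Kcnab1* to *Kcnab2* ratio is low in all HSALR mice.

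The inward rectifier genes encode channels that clamp the membrane near the potassium equilibrium. *Kcnj2* (chr11:111066164-111076825, forward strand) encodes Kir2.1, which stabilizes the resting potential and takes potassium back up from the tubules, and its loss causes Andersen-Tawil syndrome with periodic paralysis. It was at 124, 75.4 and 112 normalized CPM in vehicle-treated controls and at 78.3, 116, 117, 87.2 and 134 in vehicle-treated HSALR mice. After AICAR it was at 44.0, 85.7 and 85.0 in controls and at 86.3, 125, 47.0, 121 and 104 in HSALR mice. Mice of the same group spread widely, and the groups overlapped in every comparison. The log2 fold change between the genotypes was 0.04 after vehicle (95% interval -0.58 to 0.66) and 0.43 after AICAR (95% interval -0.19 to 1.06) (adjusted p = 0.942 and 0.313), so that the data leave room for moderate changes in either direction after vehicle. With AICAR it was -0.14 in HSALR muscle (95% interval -0.67 to 0.40) and -0.53 in control muscle (95% interval -1.23 to 0.16).

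*Kcnj11* (chr7:46097123-46100952, reverse strand) encodes Kir6.2, the pore of the ATP-sensitive potassium channel that opens when the energy state of the fibre falls. It was at 181, 190.5 and 166 normalized CPM in vehicle-treated controls and at 195, 229.5, 219, 219 and 213 in vehicle-treated HSALR mice. After AICAR it was at 165, 151 and 175 in controls and at 193, 176, 210.3, 209.7 and 206 in HSALR mice. The genotypes were narrowly apart under both treatments, and the HSALR mice were 1.20-fold higher after vehicle (log2 fold change 0.26, SE 0.07, adjusted p = 0.0166) and 1.22-fold higher after AICAR (0.28, SE 0.07, adjusted p = 0.0137). The call after vehicle was lost without control mouse S450 (0.21, adjusted p = 0.0898), and that after AICAR without control mouse S448 (0.23, adjusted p = 0.0759) and on scaling to *Tbp* (0.25, adjusted p = 0.253). On that scaling the log2 fold change after vehicle was 0.53 and passed, where the median of all genes was 0.28. In the 10 libraries left without those that hold epidermal RNA, the log2 fold change was 0.06 after vehicle (adjusted p = 0.830) and 0.23 after AICAR (adjusted p = 0.0801). With AICAR its log2 fold change was -0.11 in HSALR muscle (95% interval -0.25 to 0.02) and -0.13 in control muscle (95% interval -0.31 to 0.04), and neither passed, although the first did with scaling by library size alone (adjusted p = 0.0190). The ratio of *Kcnj11* to *Kcnj2* reads was between 1.41 and 4.47 over all mice, and none of its 4 comparisons passed, with the smallest exact permutation p at 0.375. Without the 6 libraries with epidermal RNA, the log2 ratio differed by 0.37 between the genotypes after vehicle and by -0.35 after AICAR, and with AICAR by -0.19 in HSALR mice (0.08 in all libraries) and by 0.53 in control mice (0.44 in all libraries).

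*Kcnab1* showed the largest difference of the 8 genes between the genotypes. It encodes the Kvβ1 subunit, which attaches to the inner side of voltage-gated potassium channels of the Kv1 family and speeds their inactivation. It lies on the forward strand (chr3:64949212-65378225) and overlaps 3 annotated long non-coding RNAs, *A330015K06Rik*, *Gm52605* and *A730090N16Rik*. In vehicle-treated controls it was at 76.4, 82.1 and 68.0 normalized CPM. In vehicle-treated HSALR mice it was at 13.9, 16.0, 9.12, 7.59 and 11.3. The lowest control was thus several times above the highest HSALR mouse. The level was 6.52-fold lower in HSALR muscle (log2 fold change -2.71, SE 0.18, adjusted p = 8.44e-08), and the mean was 15.3% of the control mean.

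After AICAR, *Kcnab1* was at 51.4, 52.8 and 63.6 normalized CPM in control mice and at 11.0, 10.5, 9.03, 9.67 and 9.10 in HSALR mice, again far apart. The level was 5.67-fold lower in HSALR muscle (log2 fold change -2.50, SE 0.18, adjusted p = 3.22e-07). The treated and untreated controls did not overlap, with a log2 fold change of -0.43 (SE 0.20, adjusted p = 0.161) that did not pass, although it did in a fit of these 2 groups alone (adjusted p = 0.0492). In HSALR muscle it was -0.23 (SE 0.16, adjusted p = 0.310), and -0.50 without the 6 libraries with epidermal RNA (adjusted p = 0.0625). Over all other settings of the fit, single mice left out included, the genotype difference stayed between -2.86 and -2.43 after vehicle, and without the 6 libraries with epidermal RNA it was -2.52 (adjusted p = 0.000138).

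The paralogous β subunit genes were also measured. *Kcnab2* was at 1.19 ± 0.23 normalized CPM in vehicle-treated controls (SD, n = 3) and at 1.85 ± 0.62 in vehicle-treated HSALR mice (SD, n = 5), a log2 fold change of 0.64 (adjusted p = 0.0503). *Kcnab3* was at 0.178 ± 0.060 and 0.118 ± 0.036 (log2 fold change -0.59, adjusted p = 0.248). Without the 6 libraries with epidermal RNA, the log2 fold changes were -0.06 for *Kcnab2* and -1.56 for *Kcnab3*. Both rest on S451 alone in the vehicle-treated HSALR group. The ratio of *Kcnab1* to *Kcnab2* reads was 68.0, 57.0 and 68.5 in vehicle-treated controls and 11.2, 7.08, 5.44, 2.81 and 8.33 in HSALR mice. After AICAR it was 38.9, 48.0 and 57.7 in controls and 8.52, 6.43, 6.55, 6.63 and 7.00 in HSALR mice. Each HSALR mouse was below each control under both treatments, and the ratio was 10.2-fold lower after vehicle and 6.81-fold lower after AICAR (exact permutation test, p = 0.0179 each, adjusted 0.0536). With the 6 libraries with epidermal RNA left out, the log2 ratio differed by -2.47 after vehicle, with S451 alone in the HSALR group, and by -2.76 after AICAR. With AICAR in HSALR mice it differed by 0.14 in all libraries and by -0.68 without those 6, again with S451 alone in the vehicle group.

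*Kcnc4* and *Kcnc1* encode Kv3.4 and Kv3.1, potassium channels that open at strongly positive potentials and repolarize the membrane fast. *Kcnc4* (chr3:107438298-107460287, reverse strand) was at 88.3, 81.6 and 85.8 normalized CPM in vehicle-treated controls and at 97.2, 92.6, 157, 155 and 157 in vehicle-treated HSALR mice. All HSALR mice were above all controls, but S451 and S452 only slightly so, while S453, S458 and S459 formed a separate high set. The level was 1.55-fold higher in HSALR muscle (log2 fold change 0.63, SE 0.18, adjusted p = 0.0195). This call was lost on leaving out any of the 3 controls, although the log2 fold change stayed between 0.60 and 0.66 (adjusted p up to 0.0659). In the 10 libraries left without those that hold epidermal RNA, where S451 is the only mouse left in the group, the log2 fold change was 0.19 (adjusted p = 0.630).

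After AICAR, *Kcnc4* was at 71.1, 48.9 and 59.9 normalized CPM in controls and at 58.1, 55.9, 59.5, 52.2 and 74.1 in HSALR mice, and the ranges of the genotypes overlapped (log2 fold change -0.00, 95% interval -0.39 to 0.38). In HSALR muscle *Kcnc4* fell 2.20-fold with AICAR, with every treated mouse below every vehicle-treated mouse (log2 fold change -1.14, SE 0.16, adjusted p = 0.000133). This call held under all other settings of the fit, single mice left out included, with log2 fold changes from -1.25 to -1.07, and without the 6 libraries with epidermal RNA (-0.70, adjusted p = 0.0339). In control muscle the treated mice were also all below the untreated ones, with a log2 fold change of -0.51 (SE 0.20, adjusted p = 0.111). The AICAR effects differed by -0.63 between the genotypes (95% interval -1.17 to -0.09, adjusted p = 0.263). AICAR-treated HSALR muscle was 1.42-fold below vehicle-treated control muscle (log2 fold change -0.51, SE 0.18, adjusted p = 0.0363), a call that was lost on leaving out any of 7 single mice, with log2 fold changes from -0.54 to -0.46.

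*Kcnc1* (chr7:46396219-46438706, forward strand) moved the other way with AICAR. After vehicle it was at 115, 117 and 69.1 normalized CPM in controls and at 97.2, 112, 121, 149.6 and 146 in HSALR mice, with overlap (log2 fold change 0.32, 95% interval -0.14 to 0.78, adjusted p = 0.307). After AICAR it was at 159, 186 and 298 in controls and at 184, 188, 203, 185 and 263 in HSALR mice. In both genotypes every treated mouse was above every vehicle-treated mouse. *Kcnc1* rose 2.14-fold with AICAR in control muscle (log2 fold change 1.10, SE 0.24, adjusted p = 0.00817) and 1.64-fold in HSALR muscle (0.71, SE 0.19, adjusted p = 0.0113). The first call was lost in a fit of those 2 groups alone (1.09, adjusted p = 0.0593) and the second with the epidermal score as a covariate (0.55, adjusted p = 0.121). Without the 6 libraries with epidermal RNA, the log2 fold changes were 0.97 (adjusted p = 0.0683) and 1.07 (adjusted p = 0.0737). AICAR effects of the genotypes differed by -0.39 (95% interval -1.03 to 0.26, adjusted p = 0.583).

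All 8 epidermal markers were called lower after AICAR in HSALR muscle, where 13% of all tested genes were lower. Their summed level in HSALR muscle was between 0.612 and 187 normalized CPM after vehicle and between 0.242 and 0.371 after AICAR. With the markers as a covariate or without the libraries that hold them, the calls of *Clcn1* and *Kcnc1* in that comparison were lost as given above, and the log2 fold changes of *Clcn1*, *Kcnc4* and *Kcnc1* kept their direction. Between the genotypes after AICAR, 5 of the 8 markers were also called lower, where 9.64% of all tested genes were. In AICAR-treated HSALR against vehicle-treated control muscle 6 of the 8 were called lower, where 16.4% of all tested genes were. Single control libraries held the markers too, with sums of 92.3 (S450, vehicle) and 104 (S448, AICAR). The source of this RNA was not tested. In bulk muscle, fewer cells of a type and less RNA per cell cannot be told apart.

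*Kcnn3* encodes SK3, a small-conductance potassium channel opened by calcium, which is scarce in innervated adult muscle and appears in denervated and myotonic fibres. It lies on the forward strand (chr3:89520164-89672494). In vehicle-treated controls it was at 7.33, 5.87 and 8.60 normalized CPM, from 460 to 633 reads per mouse. In vehicle-treated HSALR mice it was at 27.1, 22.4, 24.1, 19.7 and 25.6, from 1614 to 1946 reads. The groups were far apart, and the level was 3.27-fold higher in HSALR muscle (log2 fold change 1.71, SE 0.26, adjusted p = 0.000214).

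After AICAR, *Kcnn3* was at 6.58, 4.10 and 3.27 normalized CPM in controls and at 15.8, 13.3, 29.2, 14.9 and 16.9 in HSALR mice, where S460 stood well above the others. The level was 3.87-fold higher in HSALR muscle (log2 fold change 1.95, SE 0.27, adjusted p = 0.00014). Both genotype calls held under all other settings of the fit, single mice left out included, and without the 6 libraries with epidermal RNA (2.03, adjusted p = 0.0303, and 1.87, adjusted p = 0.00938). With AICAR the log2 fold change was -0.40 in HSALR muscle (SE 0.21, adjusted p = 0.173), or -0.59 without those 6 libraries (adjusted p = 0.427), and -0.64 in control muscle (SE 0.28, adjusted p = 0.146). Without S460 the value in HSALR muscle was -0.64 (adjusted p = 0.0107), and without control mouse S447 that in control muscle was -0.98 (adjusted p = 0.0427).

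Of 8 genes that mark denervated or regenerating fibres, 5 were also called higher in HSALR muscle after vehicle: *Chrna1*, *Runx1*, *Gadd45a*, *Myog* and *Ncam1*, where 15.4% of all tested genes were higher. Their summed level, over all 8, was between 386 and 458.7 normalized CPM in controls and between 491 and 562 in HSALR mice. After AICAR 2 of the 8 were higher, *Chrna1* and *Ncam1*, where 12.2% of all tested genes were, and the summed level was between 422 and 645 in controls and between 478 and 530.2 in HSALR mice. Most of these sums was *Myh8*, a developmental myosin that was not called. The sum of the other 7, formed after the values were seen, was between 80.6 and 118 in controls and between 177 and 268 in HSALR mice after vehicle, without overlap. After AICAR the groups did not overlap either, with medians of 91.6 in controls and 182 in HSALR mice. With AICAR, *Chrng*, *Gadd45a* and *Myog* fell in HSALR muscle, where 13% of all tested genes were lower. In control muscle *Myh3* and *Myog* fell and *Runx1* rose, where 4.77% were lower and 8.4% higher. The difference between the AICAR effects was called for *Runx1*, where 0.691% of all tested genes were called. All 5 endothelial markers were lower in HSALR muscle after vehicle (259 to 285 normalized CPM in controls, 170.1 to 219 in HSALR mice), where 11.5% of all tested genes were called lower. After AICAR *Cdh5* and *Pecam1* were lower. Of 7 smooth muscle and pericyte markers, *Cnn1*, *Myh11*, *Notch3* and *Rgs5* were lower after vehicle, and *Myh11* and *Rgs5* after AICAR. *Myh11*, the smooth muscle myosin, was between 51.6 and 74.2 in vehicle-treated controls and between 33.8 and 39.9 in vehicle-treated HSALR mice. The summed level of the 7 was between 3585 and 4002 and between 3750 and 4255 in these groups, most of it *Des*, which muscle fibres also express. Of 5 macrophage markers, *Cd68* and *Csf1r* were higher after vehicle and the others were not called, with the summed level of the 5 between 80.5 and 109 in controls and between 93.1 and 113 in HSALR mice. With AICAR in HSALR muscle, the endothelial *Pecam1* and *Emcn*, the macrophage *Mrc1* and *Cd163* and *Des* were called higher, and *Csf1r*, *Cspg4*, *Smtn* and the fibroblast marker *Col1a1* lower. In control muscle *Des* was higher and *Smtn* lower. The part of these cells and fibres in the channel results was not tested.

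**Figure D3:**
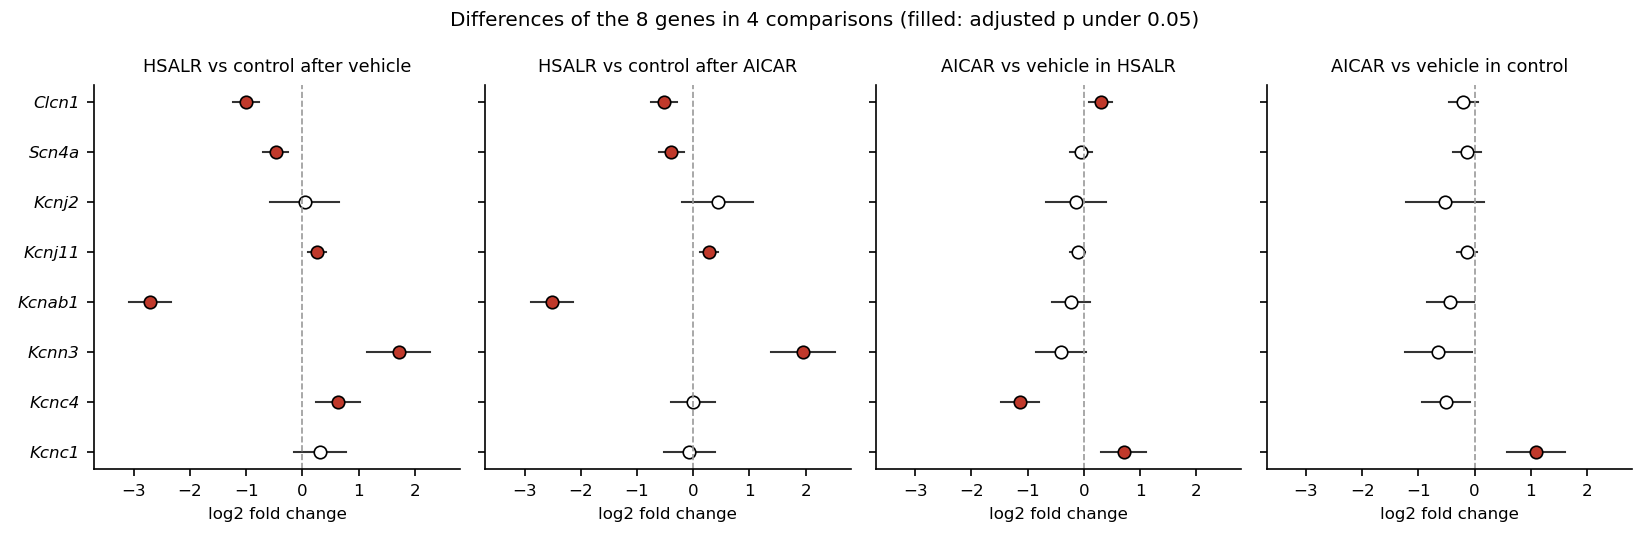
Log2 fold change (x axes) of the 8 genes in the 4 comparisons, with 95% intervals as lines; filled points have an adjusted p under 0.05. *Kcnab1* (-2.71 and -2.50) and *Kcnn3* (1.71 and 1.95) lie farthest from 0 between the genotypes, and *Kcnc4* (-1.14) and *Kcnc1* (0.71) move in opposite directions with AICAR in HSALR muscle.

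The difference between the AICAR effects of the genotypes was called for 0 of the 8 genes by edgeR, and also by DESeq2, limma and the likelihood ratio test, where 0.691% of all tested genes were called by edgeR. At an unadjusted p under 0.05 it was 2 of the 8, *Clcn1* and *Kcnc4*, and 2324 of the 15487 genes. Without HSALR mouse S459 the difference was called for *Clcn1* (0.59, adjusted p = 0.0492). Against vehicle-treated controls, AICAR-treated HSALR muscle differed in 6 of the 8 genes, where 37.2% of all tested genes were called: *Kcnn3* (log2 fold change 1.31) and *Kcnc1* (1.03) were higher and *Kcnab1* (-2.94), *Clcn1* (-0.71), *Scn4a* (-0.52) and *Kcnc4* (-0.51) lower. *Kcnj11* (0.15, adjusted p = 0.122) and *Kcnj2* (-0.10, adjusted p = 0.812) did not pass.

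Levels between genes were compared per kilobase of the gene length in the counts table. In vehicle-treated controls *Scn4a* was highest, at 84.6 ± 11.2 normalized CPM per kb (SD, n = 3), followed by *Kcnj11* at 55.1 ± 3.81 and *Clcn1* at 49.2 ± 4.97, whose ranges overlapped. *Kcnc4* (28.3 ± 1.12), *Kcnab1* (21.7 ± 2.05), *Kcnj2* (19.0 ± 4.64) and *Kcnc1* (10.7 ± 2.88) came next, and *Kcnn3* was lowest at 0.954 ± 0.180, with overlap only between *Kcnab1* and *Kcnj2*. In vehicle-treated HSALR mice *Kcnj11* (66.1 ± 3.97) and *Scn4a* (60.8 ± 6.00) led with overlapping ranges, and *Clcn1* (24.4 ± 3.39) came after *Kcnc4* (43.8 ± 11.2). *Kcnab1* (3.33 ± 0.98) and *Kcnn3* (3.12 ± 0.38) were then the lowest and overlapped (SD, n = 5 each). After AICAR *Clcn1* was the third in HSALR muscle, as it did in vehicle-treated controls (30.0 ± 1.22), ahead of *Kcnc1* (21.8 ± 3.57) and *Kcnc4* (19.9 ± 2.78), which overlapped.

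**Figure D4:**
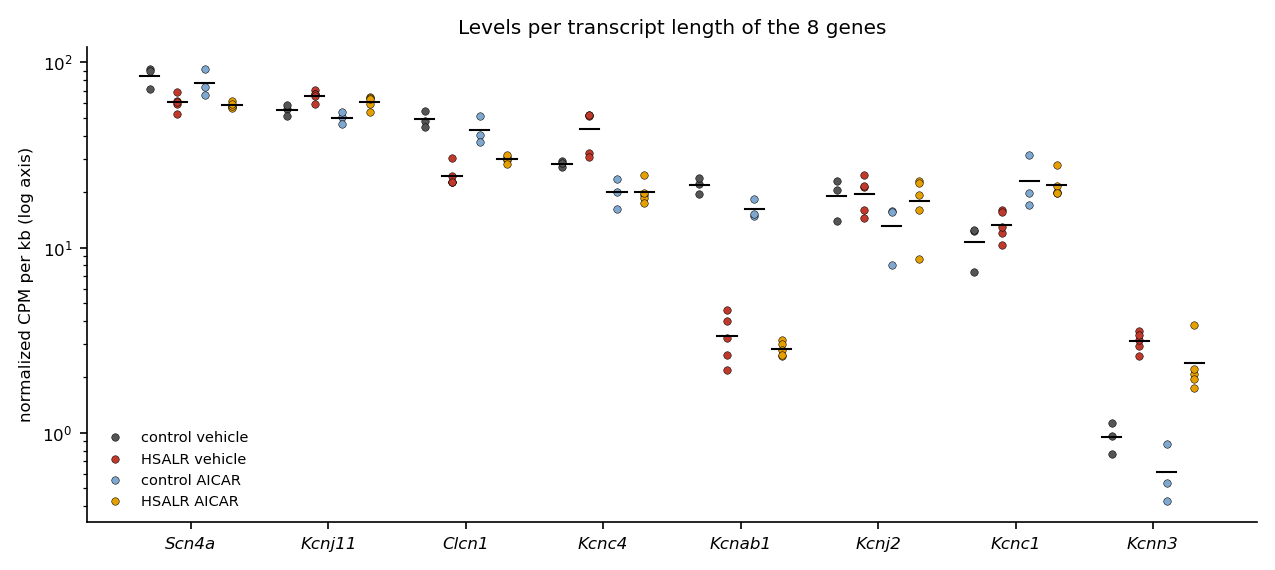
Normalized CPM per kilobase of gene length (log axis) of the 8 genes, ordered by their mean in vehicle-treated controls; points are mice, short lines are group means and colours are groups. *Kcnab1* and *Kcnn3* are 21.7 and 0.954 in vehicle-treated controls and meet at 3.33 and 3.12 in vehicle-treated HSALR mice.

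Of 87 other genes of sarcolemmal channels, pumps and scaffolds, 79 were tested. Between the genotypes after vehicle 22 of them were called, 10 higher and 12 lower, or 27.8%, near the 26.9% over all genes. Their median log2 fold change was -0.20, against 0.01 over all tested genes. After AICAR 25 of the 79 were called, 11 higher and 14 lower, or 31.6% against 21.8% of all genes. AICAR changed 21 of the 79 in HSALR muscle, 12 higher and 9 lower, or 26.6%, the same share as over all genes. In control muscle it changed 10, 6 higher and 4 lower, or 12.7% against 13.2%. Against vehicle-treated controls, AICAR-treated HSALR muscle differed in 33 of the 79, or 41.8% against 37.2%. With the 6 libraries with epidermal RNA left out, part of these calls was lost in each comparison, which was not set against all genes. All calls made with all libraries kept the direction of their log2 fold change. Of the genes named in the next paragraphs, the calls lost were those of *Kcng4* (-0.72, adjusted p = 0.204) and *Kcnk2* (-0.42, adjusted p = 0.475) after vehicle, *Kcnq1* after AICAR (-0.65, adjusted p = 0.0699), *Kcnh2* (-1.03, adjusted p = 0.112) and *Kcnk13* (1.18, adjusted p = 0.121) with AICAR in HSALR muscle, and 2 of *Kcnma1*.

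Among the 8 tested sodium channel subunit genes, 2 were higher and 2 lower in HSALR muscle after vehicle, where 15.4% of all tested genes were higher and 11.5% lower, as for the counts of the classes that follow. *Scn2a*, a sodium channel best known from neurons, rose from 3.36 ± 0.95 to 8.53 ± 5.01 normalized CPM (log2 fold change 1.34, adjusted p = 0.0143). It fell with AICAR in HSALR muscle to 4.29 ± 1.44 (-0.99, adjusted p = 0.026). Without the 6 libraries with epidermal RNA these log2 fold changes were 2.55 and -2.01, with S451 alone in the vehicle-treated HSALR group.

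Among the 24 tested voltage-gated potassium channel subunit genes, 1 was higher and 3 were lower in HSALR muscle after vehicle. *Kcng4*, a silent subunit that joins Kv2 channels, was lower (40.3 ± 11.8 in controls, 23.2 ± 1.59 in HSALR mice, log2 fold change -0.79, adjusted p = 0.00397). With AICAR it rose to 84.8 ± 16.3 in controls (1.08, adjusted p = 0.00321) and to 83.6 ± 14.7 in HSALR mice (1.85, adjusted p = 2.27e-06). *Kcng4* thus rose with AICAR in both genotypes, as did *Kcnc1*.

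Other members of this class moved in the opposite direction or between the genotypes. *Kcnh2*, the ERG channel, fell with AICAR in HSALR muscle from 5.03 ± 1.28 to 1.82 ± 0.55 normalized CPM (log2 fold change -1.47, adjusted p = 0.000186). *Kcna1* (-0.76, adjusted p = 0.00379) and *Kcnq1* (-0.71, adjusted p = 0.0425), which encode the Kv1.1 and KvLQT1 pores, were lower in HSALR than in control muscle after AICAR. *Kcnq5* was higher in AICAR-treated HSALR than in vehicle-treated control muscle (74.8 ± 9.30 against 35.8 ± 3.38, log2 fold change 1.06, adjusted p = 7.9e-05). This comparison takes in genotype and treatment. *Kcnq5* was at 55.5 ± 10.8 in vehicle-treated HSALR and 48.9 ± 6.18 in AICAR-treated control mice.

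Of the 6 calcium-activated potassium channel genes, 2 were lower in HSALR muscle after vehicle, where 11.5% of all tested genes were lower. *Kcnma1*, the large-conductance BK channel, was at 73.1 ± 12.4 normalized CPM in vehicle-treated controls and lower, at 44.8 ± 7.57, in vehicle-treated HSALR mice (log2 fold change -0.71, adjusted p = 0.000629). It was also lower in HSALR muscle after AICAR (-0.47, adjusted p = 0.0146), and it fell with AICAR in control muscle to 53.3 ± 2.39 (-0.46, adjusted p = 0.0424). Of the 7 smooth muscle and pericyte markers, 4 were also lower after vehicle, while *Des* and *Cspg4* were not called and had higher medians in HSALR muscle (3582 against 3155 and 18.7 against 16.1 normalized CPM). Their part in this result was not tested. In the 10 libraries left without those that hold epidermal RNA, the log2 fold change of *Kcnma1* was -0.26 between the genotypes after vehicle (adjusted p = 0.320), -0.48 after AICAR (adjusted p = 0.00755) and -0.31 with AICAR in control muscle (adjusted p = 0.129). With AICAR in HSALR muscle it was -0.53 in these libraries (adjusted p = 0.0287) and -0.22 in all libraries (adjusted p = 0.157). Of the 7 two-pore channels, which carry leak currents, *Kcnk5* was higher in HSALR muscle after AICAR (1.66, adjusted p = 0.000852). *Kcnk2* was lower in HSALR muscle after vehicle (-0.71, adjusted p = 0.0045). Under the other treatment the means went the same way. *Kcnk5* was at 2.04 ± 0.32 normalized CPM in controls and 4.77 ± 0.84 in HSALR mice after vehicle. *Kcnk2* was at 3.96 ± 0.57 and 2.71 ± 0.53 after AICAR. *Kcnk13* rose with AICAR in HSALR muscle from 0.484 ± 0.072 to 1.04 ± 0.28 (1.10, adjusted p = 0.00224), and *Kcnk3* was lower in AICAR-treated HSALR than in vehicle-treated control muscle (-1.52, adjusted p = 0.0021).

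Of the 11 other chloride and anion channel genes, 2 were lower in HSALR muscle after vehicle and 4 after AICAR, where 11.5% and 9.64% of all tested genes were lower. *Ano1*, a calcium-activated chloride channel, fell from 9.62 ± 1.37 to 5.05 ± 1.39 normalized CPM after vehicle (log2 fold change -0.93, adjusted p = 0.00116). *Ano6*, a scramblase and ion channel, rose with AICAR in control muscle from 66.8 ± 5.98 to 96.3 ± 10.5 (0.53, adjusted p = 0.00233).

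Among genes of the sodium-potassium pump, 2 of 10 were higher in HSALR muscle after vehicle and 3 after AICAR, where 15.4% and 12.2% of all tested genes were higher. *Atp1b4*, a muscle protein related to the pump's β subunits, rose from 7.17 ± 0.73 to 22.3 ± 10.1 normalized CPM after vehicle (log2 fold change 1.64, adjusted p = 0.000703). It fell with AICAR in HSALR muscle to 10.6 ± 2.63 (-1.07, adjusted p = 0.0039) and in control muscle to 2.82 ± 0.58 (-1.34, adjusted p = 0.0126). Without the 6 libraries with epidermal RNA, the log2 fold changes of *Atp1b4* were 2.56 after vehicle and, with AICAR, -1.92 in HSALR and -1.21 in control muscle. The values 2.56 and -1.92 rest on S451 alone in the vehicle-treated HSALR group. *Fxyd6*, a pump regulator, was lower in AICAR-treated HSALR than in vehicle-treated control muscle (-0.99, adjusted p = 0.00184). Of 6 scaffold genes, 3 were higher after vehicle. *Sntb1*, β1-syntrophin of the dystrophin complex, rose from 6.88 ± 0.85 to 22.0 ± 3.94 (1.68, adjusted p = 1.64e-06) and stayed at 23.9 ± 3.03 in HSALR muscle after AICAR.

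**Figure D5:**
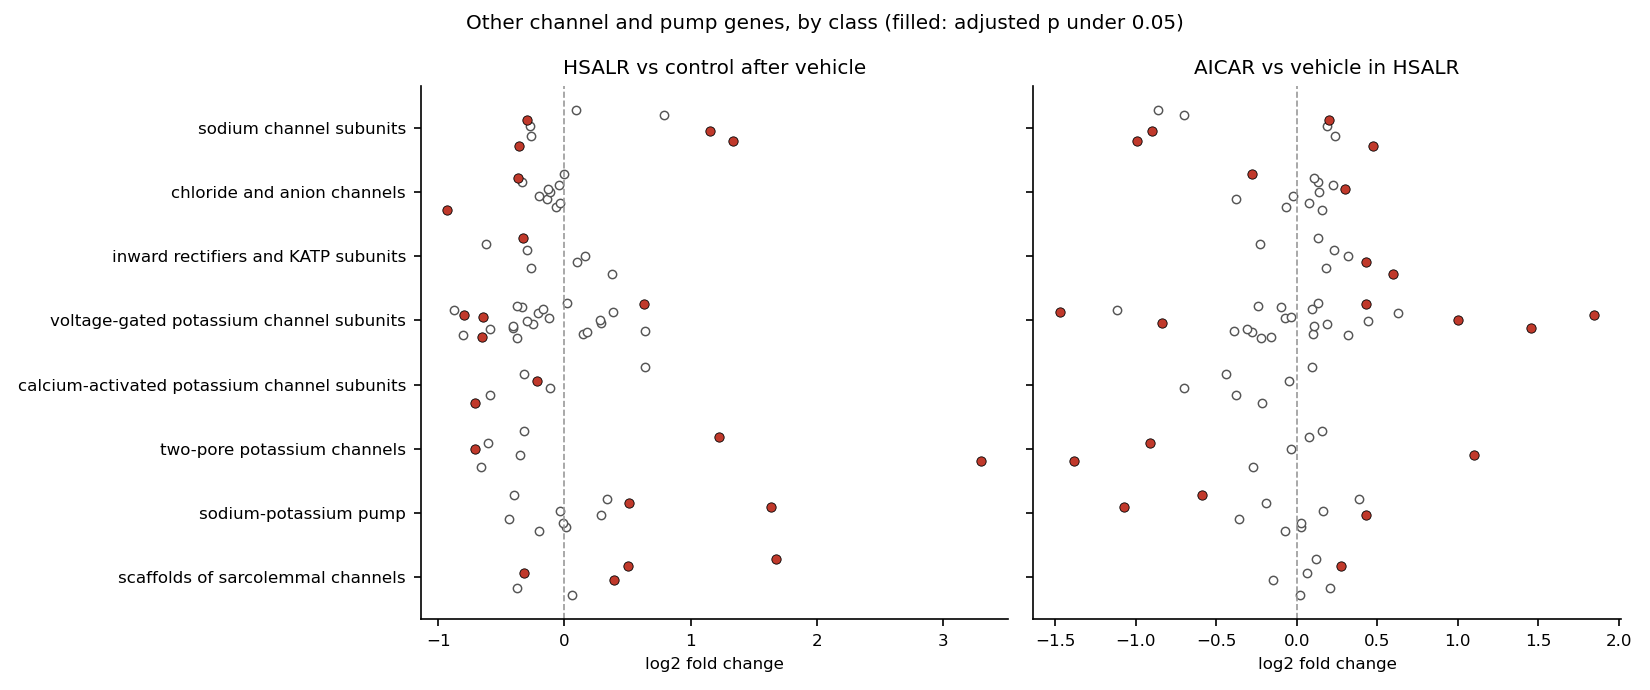
Log2 fold change (x axes) of the 79 other tested channel, pump and scaffold genes by class (rows; points within a row are spread vertically only for legibility), between the genotypes after vehicle (left) and with AICAR in HSALR muscle (right). Filled points have an adjusted p under 0.05, 22 on the left and 21 on the right, and they lie on both sides of 0.

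For each of the 8 genes, the genes whose log2 level over the 16 mice was most like it were taken from 12993 others with a mean count of at least 50. The measure was Pearson's r, given as a description over mice that share groups. *Epb41*, *Lrrc20* and *Narf* were most like *Clcn1* (r = 0.95, 0.95 and 0.95, and within groups 0.80, 0.64 and 0.52). *2610507B11Rik*, *Rbm33* and *Oxsr1* were most like *Scn4a* (0.96, 0.95 and 0.94), and *Dhdh*, *Six2* and *2610002M06Rik* most like *Kcnab1* (0.98, 0.98 and 0.97). *Bhlhb9*, *Ctxn3* and *Dupd1* were most like *Kcnn3* (0.98, 0.97 and 0.97), *Prss55*, *Lrrc74b* and *Foxo6* most like *Kcnc4* (0.96, 0.94 and 0.94), and *Repin1*, *Mrpl42* and *Atp1b2* most like *Kcnc1* (0.93, 0.92 and 0.91). *Trp53rkb*, *Gmppb* and *Gnas* were most like *Kcnj11* (0.95, 0.90 and 0.90), and *Jrkl*, *Cited2* and *Dusp6* most like *Kcnj2* (0.89, 0.87 and 0.86). Within groups r was lower for *Kcnab1* and these genes (0.51 to 0.70) than over all mice, while for *Kcnj2* and its genes it was between 0.87 and 0.94.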

How the data were processed

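RNA was extracted from part of each powdered *gastrocnemius* muscle, and stranded libraries were made. Per the labels and the methods of the study, the authors aligned single-end reads with STAR 2.5.2a to mm10, kept 1 of several equally good locations of a read, and counted those that started in any RefSeq exon; whether strand was used in counting is not given in the sources used here. The deposited values are raw counts per gene with a gene length, without normalization. Gene symbols and positions came from RefSeq GRCm38.p6, the assembly of mm10, for 24374 of 24454 Entrez identifiers, and strands from GENCODE.

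Counts were tested in R 4.3.3 with edgeR 4.0.16 (TMM, filterByExpr over 4 groups, glmQLFit without robust estimation, glmQLFTest, all 16 mice), after the tests were tested on simulated data. Standard errors are the log2 fold change divided by the square root of F. Ratios of reads were compared by two-sided exact permutation tests. The study names edgeR without a design.

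The 8 genes, the lists of channel genes and markers and the naming rule were chosen with earlier results of these data known. The rule names the 8 genes, the 3 genes most like each over the mice, and in each comparison up to 3 higher and 3 lower other channel genes with the largest log2 fold change and a mean count of at least 50. *Kcnab2* and *Kcnab3* stand outside it, and some channel genes that it names are not reported here.

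Alternatives were, in turn, each mouse left out, an epidermal marker score as covariate, a fit of the groups compared only, robust dispersions, a minimum of 10 counts in every library, no filter, scaling by *Tbp*, by library size, by the upper quartile or by RLE, voom of limma 3.58.1, the likelihood ratio test of edgeR, and DESeq2 1.42.0. Leaving out the 6 libraries with epidermal RNA was added after seeing the data. No pair of mice in a group was alike within sampling noise (chi-square per degree of freedom from 25.1 to 141 over 26 pairs), and that they are separate animals is taken from the mouse identifiers in the labels. No sequences of proteins or single exons were used here.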

Additional observations from a re-analysis of the deposited data

Results flagged for a closer look

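In 22 groups of 5 mice, taken over the 8 genes and 3 ratios in the vehicle-treated and the AICAR-treated HSALR mice, 3 held a mouse far from the other 4, where chance gives about 1 in 20. *Clcn1* was at 107.6 normalized CPM in vehicle-treated HSALR mouse S459, against 79.6 to 85.8 in the others. *Kcnn3* was at 29.2 in AICAR-treated HSALR mouse S460, against 13.3 to 16.9. *Kcnc1* was at 263 in AICAR-treated HSALR mouse S463, against 184 to 203. Each was the highest mouse of its group.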

How the results depend on the processing

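Of 1384 values recomputed under other settings for the 8 genes, 1301 kept their direction and their side of the threshold, 41 turned their direction, 36 lost their call and 6 gained one. Every value that turned its direction was of a gene or ratio without a call. The calls that were lost or gained stand with the genes above, apart from *Kcnc4* between AICAR-treated HSALR and vehicle-treated control muscle, which was also lost on scaling to *Tbp* and with the epidermal covariate, *Scn4a* there on scaling to *Tbp* (adjusted p = 0.0744), and *Kcnj11* there, which passed without S455 (adjusted p = 0.0473). Where no reason is given, the cause was not tested. No paired analysis was possible because mice of different groups share no identifier. The fit of only the groups compared could not be made for the difference between the AICAR effects, which takes in all 4 groups. Gene counts do not show which transcripts a gene made, and 3 control mice per treatment limit the precision.

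Scaling to *Tbp* moved the median log2 fold change of all genes to 0.28 between the genotypes after vehicle, -0.04 after AICAR, -0.13 with AICAR in HSALR and 0.19 in control muscle, -0.32 for the difference between the AICAR effects and 0.14 between AICAR-treated HSALR and vehicle-treated control muscle. It called 3 of the 8 genes and 1396 of all genes between the genotypes after AICAR, in place of 5 and 3379. It turned *Scn4a* (0.0568) and *Kcnj11* (0.0618) with AICAR in control muscle and *Kcnj2* between AICAR-treated HSALR and vehicle-treated control muscle (0.0593). It gave differences between the AICAR effects of -0.223 for *Scn4a*, -0.279 for *Kcnj11*, -0.116 for *Kcnab1* and -0.083 for *Kcnn3*.

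With the epidermal covariate, 1 of the 8 and 2596 of all genes were called with AICAR in HSALR muscle, in place of 3 and 4121. *Kcnj2* turned after vehicle (-0.102), with AICAR in HSALR muscle (0.133) and between AICAR-treated HSALR and vehicle-treated control muscle (0.0307). *Kcnc4* turned after AICAR (0.0205), and in the difference between the AICAR effects *Scn4a* (-0.0161) and *Kcnj11* (-0.017). Without the 6 libraries with epidermal RNA, which leaves 10 mice, 904 of all genes were called between the genotypes after vehicle in place of 4169, and *Kcnj2* (-0.355) and *Kcnc1* (-0.261) turned. With AICAR in HSALR muscle 1 of the 8 and 899 of all genes were called, and *Kcnj2* (0.302) and *Kcnj11* (0.0300) turned. With AICAR in control muscle edgeR called 0 of the 8 genes and 697 of all genes. At an unadjusted p under 0.05 it was 3 of the 8 genes, and 3444 of the 15584 genes tested without those libraries. For the difference between the AICAR effects edgeR called 0 of all genes, 1485 at an unadjusted p under 0.05, and gave -0.0243 for *Kcnab1*, -0.162 for *Kcnn3* and 0.101 for *Kcnc1*.

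For the difference between the AICAR effects, 107 of all genes were called by edgeR's quasi-likelihood test, 322 by its likelihood ratio test, 536 by DESeq2, 381 on scaling to *Tbp* and 60 with the epidermal covariate. A fit of only the groups compared called 1164 of all genes with AICAR in control muscle, in place of 2039. The value of *Kcnc4* between the genotypes after AICAR, which lies near 0, was 0.0166 with upper-quartile scaling, 0.000336 with a minimum of 10 counts and 0.00547 with voom, and that of *Kcnj11* for the difference between the AICAR effects was -0.0063 with library size only.

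With single mice left out, the genes called between the genotypes after AICAR numbered 2214 (without S447) to 3790. With AICAR in control muscle they numbered 1143 (without S449) to 2186, also 1214 without S445 and 1344 without S448, and 1 to 2 of the 8 genes were called, *Kcnn3* being the second without S447. For the difference between the AICAR effects they numbered 15 (without S448) to 371 (without S460), and 0 or 1 of the 8 genes were called. *Kcnj2* lay between -0.148 and 0.186 after vehicle, between -0.247 and 0.037 with AICAR in HSALR muscle, and between -0.286 and 0.0735 between AICAR-treated HSALR and vehicle-treated control muscle. After AICAR, *Kcnc4* lay between -0.127 and 0.139 and *Kcnc1* between -0.243 and 0.246 between the genotypes. *Scn4a* lay between -0.0986 and 0.00138 with AICAR in HSALR muscle. For the difference between the AICAR effects, *Scn4a* lay between -0.00241 and 0.231 and *Kcnj11* between -0.0245 and 0.0746. The log2 ratio of *Clcn1* to *Scn4a* reads between the genotypes after AICAR lay between -0.143 and -0.0972, with an exact permutation p up to 0.0952. That of *Kcnab1* to *Kcnab2* with AICAR in HSALR muscle lay between -0.149 and 0.351, and was -0.682 without the 6 libraries with epidermal RNA. That of *Kcnj11* to *Kcnj2* lay between -0.395 and 0.191 between the genotypes after AICAR and between -0.183 and 0.235 with AICAR in HSALR muscle, where it was -0.194 without those 6 libraries.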
